A study of Pleurotus ostreatus with 9 samples.

Results

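The genes described here are those of the oyster mushroom Pleurotus ostreatus that the deposited annotation places in the KEGG pathway of eukaryotic ribosome biogenesis but outside the small-subunit processome. They were chosen by annotation, with earlier results of these data known. A gene was taken if its KEGG entry held that pathway and its gene ontology entry held none of 6 terms, namely the processome, the cytosolic and mitochondrial large and small ribosomal subunits, and monooxygenase activity. This gave 73 of the 97 pathway genes, of 10682 genes in the table; of the 24 left out, 21 carried the processome term. The table describes 72 of the 73 as hypothetical proteins, so the factor names used here come from the orthology number of each gene, and the roles given for them are known mainly from budding yeast.

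RNA was taken from mycelium of strain GEMB-PO1 grown in shaken GYP medium (glucose, yeast extract and peptone) at 28 °C and harvested on day 3. The BBP+PB cultures received butyl benzyl phthalate (BBP), a phthalate plasticizer, and also piperonyl butoxide (PB) at 1 mM, a compound that blocks cytochrome P450 enzymes. The BBP cultures received BBP without PB, and the control cultures had no chemical added, with no vehicle named. The labels give 3 biological replicates per group; they also give the BBP dose in 1 place as 50 mg/L and in another as 200 mg/L, so no dose is attached to any value. Cultures given PB alone were not analysed here, so BBP+PB against BBP compares cultures with and without PB where BBP is present. Total counts per library ran from 38098599 to 49161706.

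Ribosomes are assembled in the nucleolus, where the precursor of the ribosomal RNAs is transcribed, modified by small nucleolar ribonucleoproteins (snoRNPs) and cut by nucleases. Large-subunit precursors are then remodelled by GTPases and AAA-ATPases, exported through nuclear pores, and freed of their last assembly factors in the cytoplasm, where the small subunit also undergoes its final cleavage. In growing fungi many of these genes are known to be transcribed in step with growth.

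The set is less uniform than its pathway label. An ontology term that fits the factor named by the orthology number was present for 46 members. These comprise 3 proteins of the H/ACA snoRNP, 7 early pre-rRNA processing factors, 11 nucleases and RNase P or MRP subunits, 14 large-subunit assembly factors, 6 late small-subunit factors and 5 nuclear export factors. The other 27 members belong to the set by orthology number alone: 12 have no informative ontology term and 15 have terms that name another function. Of these 27, 12 carry the number of a processome subunit without the processome term. The 73 members share 46 orthology numbers, 16 of which are carried by more than 1 member.

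Expression is given as FPKM (fragments scaled for gene length and library total), as deposited by the authors, so each value is relative to the total poly(A) RNA of its library. Changes are log2 fold changes ± SE from edgeR's quasi-likelihood test on the deposited counts, fitted across 9399 genes with a mean of at least 1 FPKM. A gene is called higher or lower when its Benjamini-Hochberg adjusted p over all tested genes is under 0.05. Of the 73 members, 69 were tested, with mean FPKM from 1.58 to 572.4 (median 20.45). The 4 below 1 FPKM carry numbers alone: those of Utp12 (0.812 FPKM), Utp22 (0.734), Lsg1 (0.657) and Utp21 (0.526).

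In BBP cultures against controls, 6 members were higher and 13 lower, and 50 were not called. Over all tested genes 10.1% were higher and 8.33% lower. The median log2 change was -0.07 over the members and -0.01 over all genes. The 46 members with a matching term gave 2 higher and 11 lower (median -0.24), and the 23 tested members with a number alone gave 4 higher and 2 lower (median 0.16). Where counts were scaled by library size instead of TMM factors, the split of the 69 members was 4 higher and 17 lower, and that of all genes 684 higher and 1108 lower. The number of lower members was 6 to 8 when any single library other than control replicate 1 was left out, and 14 without that library.

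In BBP+PB cultures against BBP cultures, 4 members were higher and 2 lower, and 63 were not called, where 9.98% of all genes were higher and 10.5% lower. The member median was -0.05, against -0.01 over all genes. Both lower calls fell on members with a number alone. Under library-size scaling the split was 4 higher and 4 lower, and over all genes 621 higher and 1327 lower. When any single BBP+PB library, BBP replicate 1 or BBP replicate 3 was left out, 2 members were higher, and without BBP replicate 2, 5 were lower.

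In BBP+PB cultures against controls, 14 members were higher and 19 lower, and 36 were not called, where 19.9% of all genes were higher and 21.2% lower. The member median was -0.19 (-0.082 without control replicate 3) and that of all genes -0.04. Members with a matching term gave 7 higher and 15 lower (median -0.26), and those with a number alone 7 higher and 4 lower (median 0.12). Library-size scaling gave 10 higher and 27 lower members, and 1196 higher and 3183 lower genes in all. That scaling moved the median of all genes by -0.22, and by -0.11 in BBP against control and in BBP+PB against BBP, so role medians nearer to 0 than this depend on the scaling. Both BBP-containing groups are set against the same 3 control libraries.

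The control libraries were unequal for these genes. Control replicate 1 had the lowest FPKM of the 3 controls for 51 of the 69 tested members (73.9%), compared with 61.7% of all tested genes, and control replicate 3 the highest for 45 (65.2%), compared with 46.4%. Among the 46 members with a matching term these counts were 39 and 36. Over all 73 members, untested ones included, the median FPKM was 15.44, 15.27 and 16.12 in the BBP+PB libraries and 17.26, 18.4 and 16.19 in the BBP libraries. It was 17.76, 22.5 and 26.61 in the control libraries. The part this spread plays in the calls against controls was not tested beyond leaving out each library.

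**Figure D1:**
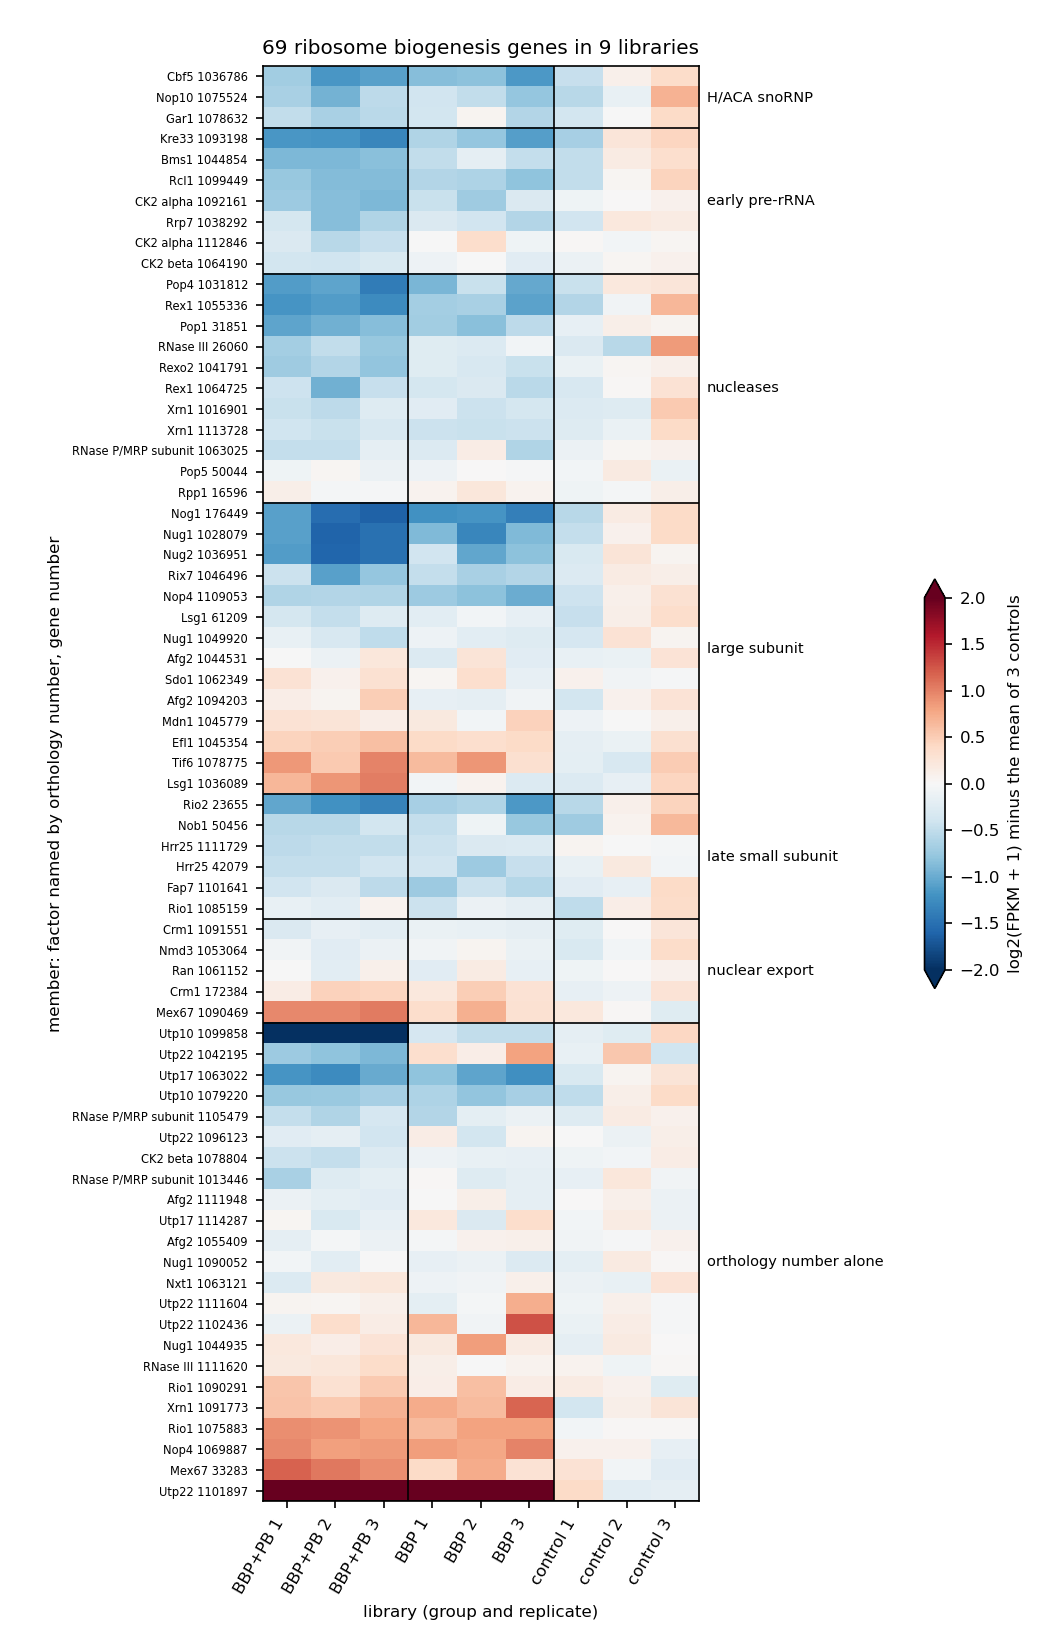
Each row is 1 of the 69 tested members, grouped by role, and each column 1 library; colour is log2(FPKM + 1) minus the mean of the 3 controls, cut at 2 in either direction. Blue fills the BBP+PB and BBP columns for most H/ACA and early rows and many nuclease and large-subunit rows, red fills them for several cytoplasmic large-subunit factors, Mex67 and several members with an orthology number alone, and control replicate 3 is redder than control replicate 1 in most rows.

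The H/ACA snoRNP converts uridines of ribosomal RNA to pseudouridine. Cbf5, its catalytic subunit (gene PLEOSDRAFT_1036786), had 32.49, 23.17 and 24.63 FPKM in BBP+PB libraries, 29.06, 29.76 and 23.49 FPKM in BBP libraries, and 38.44, 57.19 and 68.87 FPKM in control libraries. All 6 libraries with BBP lay below all 3 controls. The log2 change was -0.88 ± 0.188 in BBP against control (adjusted p = 0.0122) and -0.81 ± 0.188 in BBP+PB against control (adjusted p = 0.00739), while BBP+PB and BBP were not called apart (0.07 ± 0.187). Gar1 (PLEOSDRAFT_1078632), a core subunit and the most expressed of the 3, had 39.33, 35.08 and 38.03 FPKM in BBP+PB libraries, 42.86, 58.04 and 36.68 FPKM in BBP libraries, and 42.95, 55.29 and 73.15 FPKM in control libraries. Gar1 was not called in any comparison, and neither was the small core subunit Nop10, with log2 changes of -0.54 ± 0.286 in BBP and -0.59 ± 0.288 in BBP+PB, each against control.

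Among the 7 early factors, 2 were lower in BBP cultures and 4 in BBP+PB cultures, each against controls, and none was higher, where 8.33% and 21.2% of all tested genes were lower. Their median log2 change was -0.35 in BBP and -0.62 in BBP+PB. Kre33, an RNA cytidine acetyltransferase, fell in BBP (-0.82 ± 0.224, adjusted p = 0.0322) and in BBP+PB (-1.16 ± 0.226, adjusted p = 0.00294). BBP and control libraries overlapped, at 13.02 FPKM in BBP replicate 1 and 12.43 FPKM in control replicate 1. The BBP call was lost without replicate 1 or 3 of BBP+PB, or replicate 2 or 3 of BBP or control. It was also lost when BBP and control alone were fitted, and with a block for replicate number. Rcl1, which binds the GTPase Bms1 in early pre-rRNA particles, fell by 0.63 on the log2 scale in BBP (adjusted p = 0.0363) and by 0.70 in BBP+PB (adjusted p = 0.0114). The Rcl1 call in BBP was lost when any single library other than control replicate 1 was left out. That call was also lost when BBP and control alone were fitted, and with the replicate block. Over the fits with 1 library left out, the Rcl1 change in BBP was -0.42 at the nearest to 0. Bms1 itself was called in BBP+PB against control, at -0.79 ± 0.171 (adjusted p = 0.00511), and in BBP stood at -0.33 ± 0.17 (adjusted p = 0.202).

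Casein kinase 2 is a general kinase that in yeast also joins an early pre-ribosomal complex. One of its alpha subunit genes (PLEOSDRAFT_1092161) was lower in BBP+PB than in control cultures, at -0.62 ± 0.125 (adjusted p = 0.00345), and the other (PLEOSDRAFT_1112846) was not called, at -0.23 ± 0.14. The beta subunit PLEOSDRAFT_1064190, the most expressed early member, had 127.7, 125.3 and 133.9 FPKM in BBP+PB libraries, 153.7, 164.1 and 140.7 FPKM in BBP libraries, and 151.5, 169.4 and 175.7 FPKM in control libraries. It was not called, with a log2 change of -0.15 ± 0.0964 in BBP+PB against control. Rrp7, which also belongs to early particles, was not called.

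Of the 11 nucleases, 2 were lower in BBP (18.2%, compared with 8.33% of all tested genes) and 4 in BBP+PB (36.4%, compared with 21.2%), each against control, and none was higher. RNase P matures the ends of transfer RNA and the related RNase MRP cuts pre-rRNA, with most protein subunits in common. Their largest subunit Pop1 (PLEOSDRAFT_31851) fell by 0.63 ± 0.123 on the log2 scale in BBP (adjusted p = 0.00793) and by 0.84 ± 0.124 in BBP+PB (adjusted p = 0.000616), with no overlap with the controls.

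Pop4 (PLEOSDRAFT_1031812), another subunit, had 2.942, 3.083 and 2.225 FPKM in BBP+PB libraries, 3.536, 5.229 and 3.206 FPKM in BBP libraries, and 5.232, 8.897 and 9.044 FPKM in control libraries. All libraries with BBP lay below the controls, though BBP replicate 2 only just, and the call was reached in BBP+PB (-1.25 ± 0.266, adjusted p = 0.00451) and not in BBP (-0.83 ± 0.261, adjusted p = 0.0533). Pop5 (PLEOSDRAFT_50044), the most expressed nuclease subunit, had 34.09, 37.42 and 33.26 FPKM in BBP+PB libraries, 33.78, 36.42 and 35.75 FPKM in BBP libraries, and 34.97, 41.21 and 32.94 FPKM in control libraries. These ranges overlap throughout, and neither Pop5 nor Rpp1 was called.

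Rex1 is an exonuclease that trims the ends of small structured RNAs. Its gene PLEOSDRAFT_1055336 had 15.44, 16.06 and 14.59 FPKM in BBP+PB libraries, 22.07, 22.8 and 16.68 FPKM in BBP libraries, and 23.64, 34.41 and 57.58 FPKM in control libraries. The log2 change was -1.09 ± 0.243 in BBP+PB against control (adjusted p = 0.00576) and -0.78 ± 0.241 in BBP against control (adjusted p = 0.0491). The call in BBP was lost when any single library other than control replicate 1 was left out, and without control replicate 3 the change in BBP was -0.43. That call was also lost with DESeq2 size factors in edgeR, with limma, when BBP and control alone were fitted, and with a block for replicate number. A second gene with the Rex1 number, PLEOSDRAFT_1064725, was not called (-0.43 ± 0.175 in BBP+PB against control). Rexo2, an oligoribonuclease that degrades very short RNAs, fell by 0.51 ± 0.11 in BBP+PB against control (adjusted p = 0.00497). The cytoplasmic exonuclease Xrn1, with a pair of models 156 bp apart on 1 strand, and the pre-rRNA cleaving RNase III were not called.

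The 14 large-subunit factors moved in both directions: 1 was higher and 4 lower in BBP, and 5 were higher and 5 lower in BBP+PB, each against control. Split by where each factor is known to act in yeast, a division made after the values were seen and therefore given without a test, the 7 nuclear factors had 0 higher and 4 lower in BBP and 1 higher and 5 lower in BBP+PB. The 7 cytoplasmic factors had 1 higher and 0 lower in BBP and 4 higher and 0 lower in BBP+PB. Tif6, which is removed in the cytoplasm, was counted as cytoplasmic, and Nog1, which stays on until the cytoplasm, as nuclear. The split depends on such placements. Tif6 was placed by where it leaves the particle, and Nog1 was not. Nog1 was lower in both comparisons, so placed as Tif6 was, it would be a cytoplasmic factor called lower. The medians would then also differ from those given here. Over all tested genes 10.1% were higher and 8.33% lower in BBP, and 19.9% higher and 21.2% lower in BBP+PB. The median log2 change in BBP+PB against control was -0.60 for the nuclear factors and 0.47 for the cytoplasmic ones.

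Nog1 (PLEOSDRAFT_176449), a nucleolar GTPase that stays on the large-subunit precursor until the cytoplasm, had 14.93, 10.68 and 10.01 FPKM in BBP+PB libraries, 13.47, 13.91 and 12.04 FPKM in BBP libraries, and 22.01, 36.66 and 42.96 FPKM in control libraries. Every library with BBP was below every control. Its log2 change was -1.24 ± 0.21 in BBP (adjusted p = 0.00428) and -1.28 ± 0.211 in BBP+PB (adjusted p = 0.00117), the largest fall in BBP among the 69 tested members. Its model overlaps one on the opposite strand by 51 bp, and whether the authors' counting used strand is not given in the sources used here.

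The GTPases Nug1 and Nug2 act on nucleolar and nucleoplasmic large-subunit precursors. Nug1 (PLEOSDRAFT_1028079) had 14.92, 10.05 and 10.91 FPKM in BBP+PB libraries, 17.26, 12.63 and 17.31 FPKM in BBP libraries, and 23.14, 34.79 and 43.01 FPKM in control libraries. It fell by 0.97 ± 0.216 on the log2 scale in BBP (adjusted p = 0.0141) and by 1.26 ± 0.218 in BBP+PB (adjusted p = 0.00154), again without overlap with the controls. Nug2 (PLEOSDRAFT_1036951) had 19.26, 13.65 and 14.6 FPKM in BBP+PB libraries, 32.85, 20.39 and 24 FPKM in BBP libraries, and 34.57, 51.42 and 44.53 FPKM in control libraries. BBP+PB libraries were lowest, BBP libraries between and control libraries highest, without overlap, the highest BBP library standing just under the lowest control. Its change was -1.24 ± 0.199 in BBP+PB against control (adjusted p = 0.00103) and -0.64 ± 0.197 in BBP against control (adjusted p = 0.0476). The Nug2 call in BBP was lost when replicate 2 or 3 of any group was left out. That call was also lost when BBP and control alone were fitted, and with a block for replicate number. BBP+PB against BBP gave -0.59 ± 0.197 (adjusted p = 0.06).

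Nop4 (PLEOSDRAFT_1109053), an RNA-binding protein of early large-subunit particles, had 8.233, 8.333 and 8.301 FPKM in BBP+PB libraries, 7.497, 6.999 and 6.053 FPKM in BBP libraries, and 9.528, 14.16 and 16.44 FPKM in control libraries. The BBP libraries were the lowest of the 3 groups. Its change was -0.85 ± 0.151 in BBP against control (adjusted p = 0.00534) and -0.46 ± 0.15 in BBP+PB against control (adjusted p = 0.0317). This second call was lost when any single BBP+PB library was left out, or control replicate 2 or 3, and with a block for replicate number. Rix7, an AAA-ATPase of nucleolar particles, fell in BBP+PB against control (-0.60 ± 0.179, adjusted p = 0.023; call lost without BBP+PB replicate 2 or 3 or control replicate 2). Mdn1, a giant AAA-ATPase that strips factors from nucleoplasmic particles, was the nuclear factor that rose there, by 0.49 ± 0.151 (adjusted p = 0.0255). Mdn1 was not called under library-size scaling or with limma, nor without replicate 1 or 2 of BBP+PB or control. The remaining nuclear member, a second gene with the Nug1 number (PLEOSDRAFT_1049920), was not called.

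Lsg1 is a cytoplasmic GTPase that releases the export adaptor Nmd3 from the large subunit. Its gene PLEOSDRAFT_1036089 had 41.75, 48.82 and 53.95 FPKM in BBP+PB libraries, 25.16, 27.47 and 21.29 FPKM in BBP libraries, and 21.43, 23.19 and 35.58 FPKM in control libraries. All BBP+PB libraries lay above the other 6, while BBP and control overlapped. The log2 change was 1.07 ± 0.175 both against BBP (adjusted p = 0.00275) and against control (adjusted p = 0.00113), and it was -0.00 ± 0.173 in BBP against control. A second Lsg1 gene with a matching term (PLEOSDRAFT_61209) was not called in any comparison, at -0.12 ± 0.152 in BBP+PB against BBP.

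Tif6 keeps the immature large subunit from joining the small one, and Efl1 and Sdo1 remove it in the cytoplasm. Tif6 (PLEOSDRAFT_1078775), the most expressed large-subunit factor, had 716.4, 560.1 and 779.5 FPKM in BBP+PB libraries, 606.6, 717.9 and 486 FPKM in BBP libraries, and 342.4, 312.9 and 554.9 FPKM in control libraries. BBP+PB libraries were above all controls, the nearest pair by little, and BBP libraries overlapped both other groups. Tif6 rose by 0.98 ± 0.223 on the log2 scale in BBP+PB against control (adjusted p = 0.00651), and in BBP stood at 0.69 ± 0.222 (adjusted p = 0.0559).

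Efl1 (PLEOSDRAFT_1045354) had 29.06, 30.23 and 32.73 FPKM in BBP+PB libraries, 27.85, 27.02 and 27.94 FPKM in BBP libraries, and 18.55, 19.12 and 26.61 FPKM in control libraries. BBP+PB libraries were highest and control libraries lowest, without overlap, and control replicate 3 came close to the BBP libraries. It was higher in BBP+PB (0.73 ± 0.125, adjusted p = 0.0014) and in BBP (0.48 ± 0.124, adjusted p = 0.027), each against control. The call in BBP was not reached under library-size scaling, nor without BBP replicate 1 or 3 or control replicate 1 or 2. Nor was it reached with limma or when BBP and control alone were fitted. Sdo1 was higher in BBP+PB against control at 0.43 ± 0.149 (adjusted p = 0.0408), but not under library-size scaling, nor when any single BBP+PB library, BBP replicate 1 or control replicate 2 or 3 was left out. The Sdo1 call was also lost with limma, with no filter on low values, and with a block for replicate number. The AAA-ATPase Afg2, which opens the cytoplasmic steps, had 2 genes with a matching term, neither of them called.

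**Figure D2:**
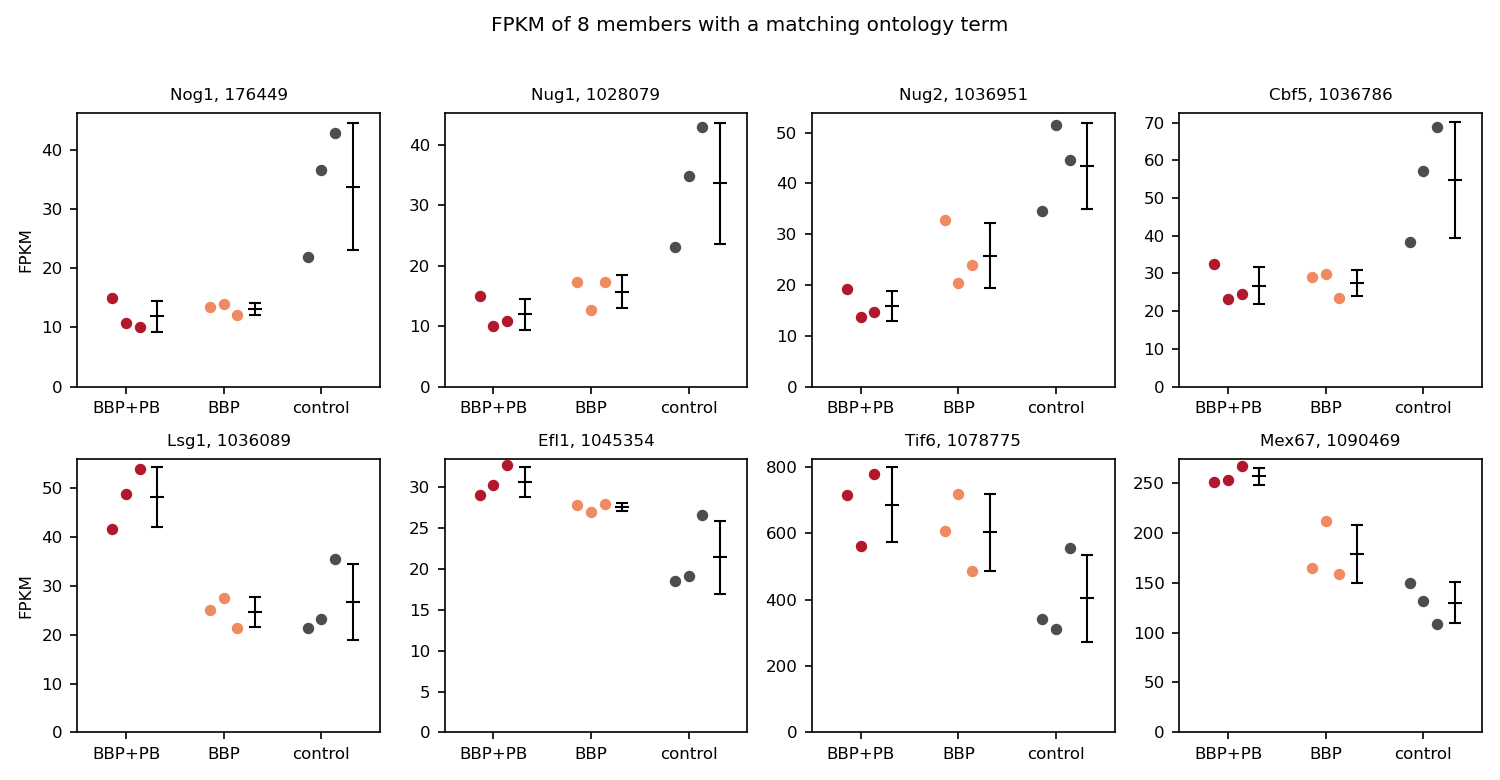
FPKM of 8 members in each library (points) with the group mean and SD (bars, n = 3), for BBP+PB, BBP and control from left to right. Nog1, Nug1, Nug2 and Cbf5 are lower in all libraries with BBP than in controls; Lsg1 is above both other groups in BBP+PB libraries alone; Efl1, Tif6 and Mex67 have their highest mean in BBP+PB.

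Late small-subunit factors complete the small subunit in the cytoplasm. Of the 6, 2 were lower in BBP, where 8.33% of all tested genes were, and 1 in BBP+PB (16.7%), below the 21.2% of all tested genes, each against control. None was higher. Rio2, an atypical kinase of the last small-subunit precursor, was lower in BBP+PB (-1.12 ± 0.236, adjusted p = 0.00432) and in BBP (-0.78 ± 0.234, adjusted p = 0.0446), the BBP call being lost when any single library other than control replicate 1 was left out. Hrr25 is a casein kinase 1 that acts on several assembly steps and elsewhere in the cell. Its gene PLEOSDRAFT_42079 was lower in BBP than in control at -0.46 ± 0.131 (adjusted p = 0.0359), a call lost when any single library other than control replicate 3 was left out. The BBP calls of Rio2 and of this gene were also lost when BBP and control alone were fitted, and with a block for replicate number.

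The more expressed Hrr25 gene, PLEOSDRAFT_1111729, had 222.4, 226 and 226.5 FPKM in BBP+PB libraries, 237.6, 261.3 and 264.3 FPKM in BBP libraries, and 331.1, 318.7 and 309.4 FPKM in control libraries. The 3 groups did not overlap in FPKM, yet no comparison of counts was called, the nearest being BBP+PB against control at -0.30 ± 0.114 (adjusted p = 0.0569). FPKM is scaled by library total and the test by TMM factors, which ran from 0.9183 to 1.129. Nob1, the endonuclease that makes the final cut of small-subunit rRNA, Fap7, an ATPase needed for that cut, and the Rio1 kinase gene with a matching term were not called.

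Of the 5 export factors, 1 was higher and 0 lower in BBP and 2 were higher and 0 lower in BBP+PB, each against control. Over all tested genes 10.1% were higher and 8.33% lower in BBP, and 19.9% higher and 21.2% lower in BBP+PB. Mex67 is the messenger RNA export receptor and in yeast also carries large subunits. Its gene PLEOSDRAFT_1090469 had 250.6, 252.7 and 266.4 FPKM in BBP+PB libraries, 164.8, 211.6 and 158.9 FPKM in BBP libraries, and 149.7, 131.2 and 109 FPKM in control libraries. BBP+PB libraries were highest and control libraries lowest, without overlap. The log2 change was 0.63 ± 0.172 in BBP+PB against BBP (adjusted p = 0.0292), 1.18 ± 0.174 in BBP+PB against control (adjusted p = 0.000622) and 0.55 ± 0.172 in BBP against control (adjusted p = 0.0523). The call against BBP was lost when any single BBP+PB library, or BBP replicate 1 or 3, was left out.

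A second, 225 bp model with the Mex67 number and no ontology term, PLEOSDRAFT_33283, had 282.3, 259.8 and 238.1 FPKM in BBP+PB libraries, 162.2, 209.7 and 152.2 FPKM in BBP libraries, and 151.9, 119.6 and 106.1 FPKM in control libraries. It lies 456 bp from the first on the same strand, and the ratio of the FPKM of the short model to that of the long one stayed between 0.894 and 1.126 over the 9 libraries. Its changes were 0.68 ± 0.192 against BBP (adjusted p = 0.0331) and 1.24 ± 0.194 against control (adjusted p = 0.00087). The call against BBP was lost when any 1 of the same 5 libraries was left out. Whether both models belong to 1 transcript was not tested, so their calls may not be independent.

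Crm1 is the exportin that carries both subunits out of the nucleus, with Nmd3 as adaptor for the large one and Ran as the GTPase that loads it. One Crm1 gene (PLEOSDRAFT_172384) was higher in BBP+PB (0.57 ± 0.136, adjusted p = 0.00832) and in BBP (0.44 ± 0.135, adjusted p = 0.0487), each against control. Libraries overlapped in both comparisons, control replicate 3 (38.33 FPKM) lying above BBP+PB replicate 1 (35.34 FPKM) and BBP replicate 1 (36.95 FPKM). Neither call was reached under library-size scaling or with limma. The BBP call was lost when any single library other than control replicate 3 was left out. It was also lost with no filter on low values, when BBP and control alone were fitted, and with a block for replicate number. The other Crm1 gene and Nmd3 were not called, with log2 changes in BBP+PB against control of -0.03 ± 0.103 and 0.06 ± 0.137. Ran (PLEOSDRAFT_1061152), the most expressed of all members, had 584.1, 506.9 and 625.9 FPKM in BBP+PB libraries, 498.5, 652.7 and 524.2 FPKM in BBP libraries, and 550.0, 588.1 and 620.8 FPKM in control libraries. Its groups overlapped fully, and it was not called (0.18 ± 0.132 in BBP+PB against control).

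**Figure D3:**
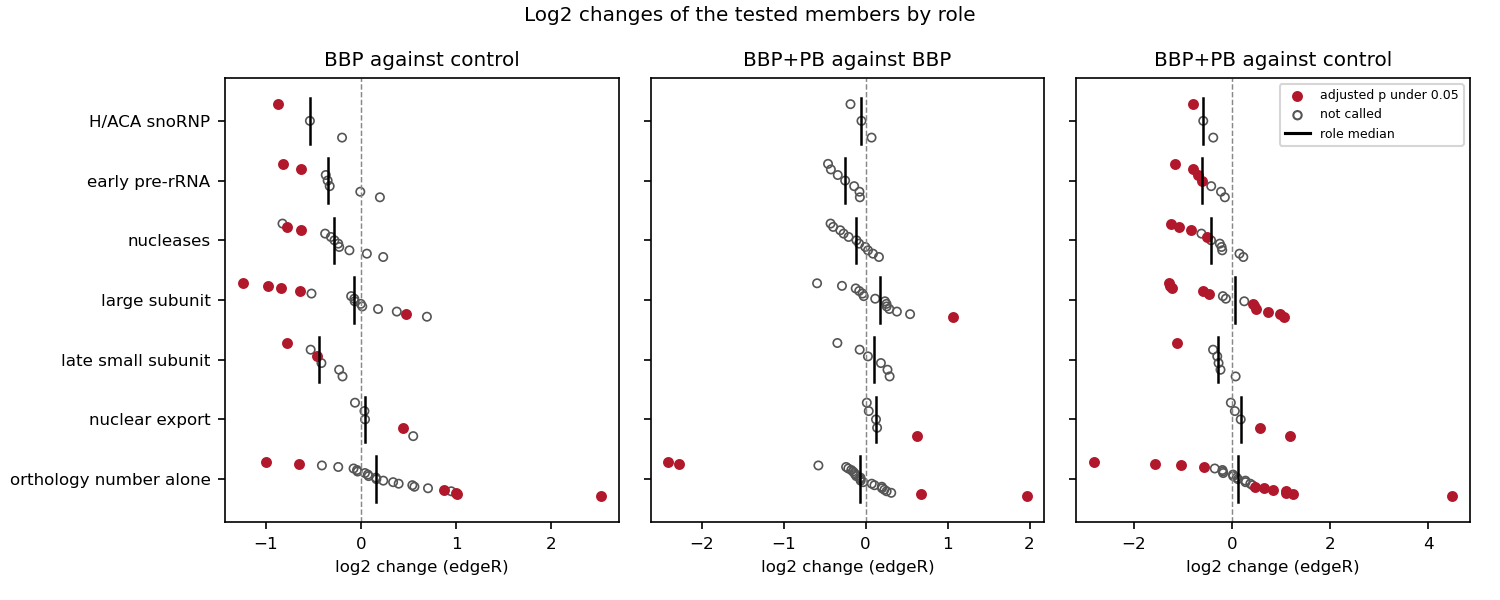
Log2 changes of the 69 tested members by role (rows) in BBP against control, BBP+PB against BBP and BBP+PB against control (panels, left to right); filled points have an adjusted p under 0.05, open points do not, and black bars are role medians. Called points of the H/ACA, early, nuclease and late small-subunit rows all lie below 0, those of the export row above 0, and those of the large-subunit and number-alone rows on both sides; in the middle panel 6 points are filled.

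The members with an orthology number alone held the widest changes of the set, from -2.82 to 4.49 in BBP+PB against control. The gene with the widest, PLEOSDRAFT_1101897, carries the number of the processome subunit Utp22 but the ontology term catalytic activity. It had 104.5, 128.7 and 139.7 FPKM in BBP+PB libraries, 38.76, 34.56 and 29.43 FPKM in BBP libraries, and 8.318, 5.208 and 5.352 FPKM in control libraries. The groups were far apart in every comparison. Its log2 change was 2.52 ± 0.236 in BBP against control (adjusted p = 0.000273), 1.96 ± 0.227 in BBP+PB against BBP (adjusted p = 0.00041) and 4.49 ± 0.255 in BBP+PB against control (adjusted p = 2.13e-06).

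Another member with the Utp22 number, PLEOSDRAFT_1042195, went the other way with PB. It had 0.5631, 0.4886 and 0.3988 FPKM in BBP+PB libraries, 2.287, 1.844 and 3.54 FPKM in BBP libraries, and 1.338, 2.782 and 0.9737 FPKM in control libraries. The BBP+PB libraries were below the other 6, and the lowest count in a library was 17. Its change was -2.27 ± 0.437 against BBP (adjusted p = 0.00627) and -1.57 ± 0.436 against control (adjusted p = 0.0165), the call against control being lost without BBP+PB replicate 3 or control replicate 2. In all, 6 members carry this number, 5 of them on 1 scaffold, with gene spans of 1209 to 1341 bp; 3 of the 5 tested were not called in any pairwise comparison.

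The gene with the same number that does carry the processome term, PLEOSDRAFT_1074124, is not in the set and spans 4285 bp. It averaged 5.16 ± 0.278 FPKM in BBP+PB, 4.97 ± 1.67 FPKM in BBP and 11.2 ± 2.31 FPKM in control (SD, n = 3 each). It fell in BBP by 1.05 ± 0.208 on the log2 scale (adjusted p = 0.00846), where PLEOSDRAFT_1101897 rose. The short Utp22-number genes are therefore named here by number and are not described as processome subunits.

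Of the pair with the number of Utp10, another processome subunit, both spans are short (686 and 642 bp), while the gene with that number and the processome term spans 8076 bp. PLEOSDRAFT_1099858 had 1.325, 1.305 and 0.8307 FPKM in BBP+PB libraries, 7.278, 6.419 and 6.449 FPKM in BBP libraries, and 8.21, 7.845 and 12.93 FPKM in control libraries. BBP+PB libraries were far below the other 6, and its change was -2.41 ± 0.268 against BBP (adjusted p = 0.000345) and -2.82 ± 0.27 against control (adjusted p = 5.07e-05). PLEOSDRAFT_1079220 was lower in BBP (-0.65 ± 0.182, adjusted p = 0.0354) and in BBP+PB (-0.57 ± 0.182, adjusted p = 0.0298), each against control. Its BBP call was lost when any single library other than control replicate 1 was left out, and its BBP+PB call when any single BBP+PB library was left out, or control replicate 2 or 3. The BBP call was also lost when BBP and control alone were fitted, and with a block for replicate number.

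**Figure D4:**
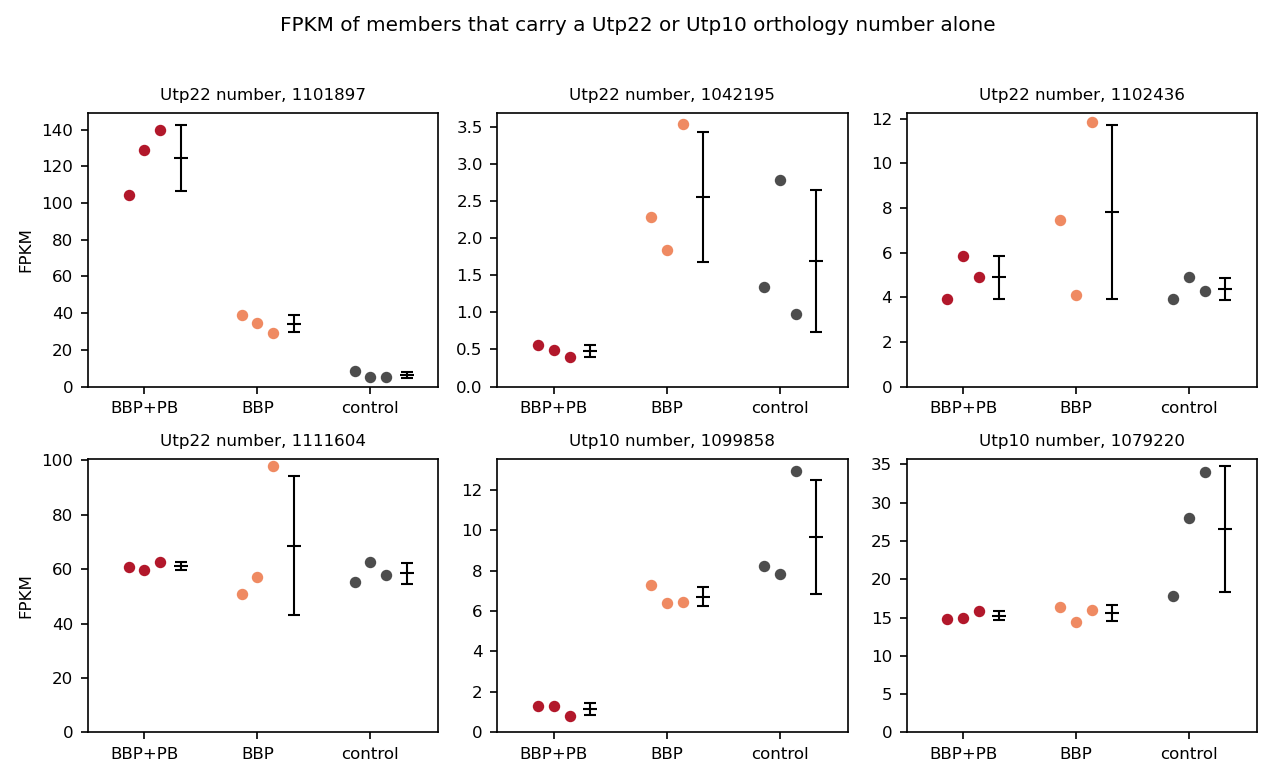
FPKM in each library (points) with the group mean and SD (bars, n = 3) of 4 members with the Utp22 number and 2 with the Utp10 number, for BBP+PB, BBP and control from left to right. PLEOSDRAFT_1101897 climbs towards BBP+PB, PLEOSDRAFT_1042195 and PLEOSDRAFT_1099858 are lowest in BBP+PB, and the other panels overlap between groups or differ less.

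Several other members were called although their terms name another function. PLEOSDRAFT_1075883 carries the number of the kinase Rio1 and the term fatty-acyl-CoA binding. It had 73.77, 71.72 and 66.98 FPKM in BBP+PB libraries, 59.97, 67.36 and 67.68 FPKM in BBP libraries, and 36.53, 38.98 and 38.99 FPKM in control libraries. All libraries with BBP were above the controls, with log2 changes of 0.87 ± 0.0996 in BBP (adjusted p = 0.000703) and 1.10 ± 0.1 in BBP+PB (adjusted p = 3.71e-05). A shorter gene with the same number and term, PLEOSDRAFT_1090291, had 536.2, 450.1 and 527 FPKM in BBP+PB libraries, 403.1, 552.9 and 407 FPKM in BBP libraries, and 409.4, 387.3 and 309.1 FPKM in control libraries, and was higher in BBP+PB against control (0.65 ± 0.178, adjusted p = 0.0155). BBP libraries overlapped with both other groups, and the call was lost without BBP+PB replicate 1 or 3.

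PLEOSDRAFT_1069887 carries the number of Nop4 and terms for telomere maintenance and messenger RNA export. It had 37.43, 33.93 and 34.55 FPKM in BBP+PB libraries, 34.52, 32.72 and 38.46 FPKM in BBP libraries, and 19.97, 19.91 and 16.71 FPKM in control libraries. It rose by 1.00 ± 0.134 in BBP (adjusted p = 0.00151) and by 1.11 ± 0.135 in BBP+PB (adjusted p = 0.000201), while the gene with that number and a matching term fell.

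PLEOSDRAFT_1091773 carries the number of Xrn1 and terms for arylformamidase activity, a step from tryptophan to kynurenine. It had 20.84, 20.17 and 22.94 FPKM in BBP+PB libraries, 23.71, 21.91 and 31.94 FPKM in BBP libraries, and 10.38, 15 and 16.62 FPKM in control libraries. It rose by 1.00 ± 0.173 in BBP (adjusted p = 0.00457) and by 0.83 ± 0.173 in BBP+PB (adjusted p = 0.00411), all 6 libraries with BBP lying above the controls.

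PLEOSDRAFT_1063022 carries the number of the processome subunit Utp17 and terms for the SAGA complex, a histone acetylating coactivator. It had 7.709, 7.256 and 8.812 FPKM in BBP+PB libraries, 10.21, 8.501 and 7.409 FPKM in BBP libraries, and 14.87, 19.45 and 22.37 FPKM in control libraries. It fell by 1.00 ± 0.146 in BBP (adjusted p = 0.00216) and by 1.03 ± 0.147 in BBP+PB (adjusted p = 0.000493), without overlap with the controls. An RNase III-number gene without an informative term, PLEOSDRAFT_1111620, was higher in BBP+PB against control by 0.47 ± 0.116 (adjusted p = 0.00908), though not under library-size scaling or with limma.

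BBP was also set against the mean of the other groups. There 5 members were higher and 2 lower, beside 4.79% higher and 2.88% lower over all genes. The higher ones, all with a number alone, were PLEOSDRAFT_1042195, PLEOSDRAFT_1099858, PLEOSDRAFT_1091773, PLEOSDRAFT_1069887 and PLEOSDRAFT_1075883, and the lower ones were Nop4 (PLEOSDRAFT_1109053, -0.61 ± 0.133, adjusted p = 0.0252) and PLEOSDRAFT_1063022. A call here does not place BBP beyond both groups: for all 5 higher members at least 1 library of the other groups was as high as a BBP library or higher, and PLEOSDRAFT_1099858 had its BBP libraries between the others. PLEOSDRAFT_1075883 averaged 70.82 FPKM in BBP+PB and 65.0 FPKM in BBP, PLEOSDRAFT_1069887 averaged 35.3 FPKM in BBP+PB and 35.23 FPKM in BBP, and PLEOSDRAFT_1063022 averaged 7.925 FPKM in BBP+PB and 8.706 FPKM in BBP. The higher members numbered 0 without BBP+PB replicate 3, BBP replicate 1 or BBP replicate 3, 1 without BBP+PB replicate 1 or 2, and 2 without control replicate 1 or 2.

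Across the set, 35 of the 69 tested members (50.7%) were called in none of the 3 pairwise comparisons, close to the 51.8% of all tested genes.

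The 21 processome genes of the same pathway had 0 higher and 14 lower (66.7%) in BBP and the same counts in BBP+PB, each against control. Their medians were -0.68 and -0.80. The shares of all tested genes were 10.1% higher and 8.33% lower in BBP, and 19.9% higher and 21.2% lower in BBP+PB. The members with a matching term had medians nearer to 0, at -0.24 and -0.26, but moved in both directions. They had 2 higher and 11 lower in BBP, and 7 higher and 15 lower in BBP+PB. A median nearer to 0 thus need not mean smaller changes, and the difference between the lists was not tested. Nucleolar genes outside the pathway (130 tested) had 6 higher (4.62%) and 27 lower (20.8%) in BBP, and 16 higher (12.3%) and 56 lower (43.1%) in BBP+PB. RNA polymerase genes (31 tested) had 0 higher and 6 lower (19.4%) in BBP, and 1 higher (3.23%) and 11 lower (35.5%) in BBP+PB. Aminoacyl-tRNA synthesis genes (45 tested) had 3 higher (6.67%) and 2 lower (4.44%) in BBP, and 8 higher (17.8%) and 8 lower (17.8%) in BBP+PB. These last shares were all below those of all tested genes.

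Structural ribosome genes of KEGG (113 tested) had 50 higher (44.2%) and 0 lower in BBP+PB against BBP, with a median of 0.44. The 69 tested members had 4 higher (5.8%) and 2 lower (2.9%) there, and all tested genes 9.98% higher and 10.5% lower. Against control the structural genes had 2 higher (1.77%) and 10 lower (8.85%) in BBP, and 31 higher (27.4%) and 13 lower (11.5%) in BBP+PB. RNA degradation genes (66 tested, any members among them kept in) had 3 higher (4.55%) and 8 lower (12.1%) in BBP against control. In BBP+PB against control they had 5 higher (7.58%) and 15 lower (22.7%). Nucleocytoplasmic transport genes (125 tested, some of them members) had 5 higher (4%) and 16 lower (12.8%) in BBP. In BBP+PB they had 14 higher (11.2%) and 22 lower (17.6%). The shares of all tested genes against control were 10.1% higher and 8.33% lower in BBP, and 19.9% higher and 21.2% lower in BBP+PB.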

How the data were processed

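Per the submitters' processing notes, the authors used fastp, HISAT2 and StringTie on poly(A), strand-marked libraries. How reads were counted, whether by strand, and on which genome build and annotation, is not given in the sources used here. The deposited table gives raw read counts and FPKM for each of 10682 genes in 9 libraries, both made by the authors. Counts were tested with edgeR 4.0.16 (limma 3.58.1, R 4.3.3): TMM factors, 1 model of 3 groups, genes with a mean of at least 1 FPKM (9399), quasi-likelihood test, 2-sided, Benjamini-Hochberg adjusted p under 0.05. The common biological coefficient of variation was 0.201. Each SE follows from the fold change and its F statistic. The test was checked on simulated counts with 50 changed genes per size. At a log2 change of 0.5 it recovered 3 or 4 of them, depending on the comparison. At 1 it recovered 31 to 37, and at 2 it recovered 47 to 49. Members not called may therefore still have changed by 0.5 or 1. Far fewer genes were changed in the simulation than were called in the data (1730 in BBP against control). The Benjamini-Hochberg threshold is stricter where fewer genes change, so the simulated recovery need not hold for the data. Tables and figures used Python 3.11.15, pandas 2.3.3 and matplotlib 3.10.9.

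The members, roles and lists were chosen with earlier results of these data known, and the lists get counts and medians, no set test. Values in every library are given, by rule, for up to 6 largest rises and falls per pairwise comparison among called members without overlap of FPKM, the most expressed member of each role, and the 2 most expressed uncalled members (25 in all). Alternatives were other scalings, DESeq2 1.42.0, limma on log2(FPKM + 1) or log2(FPKM + 0.1), other filters, 2-group fits, a replicate block, leaving out each library, and members with a matching term alone.

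Same-group libraries were checked pairwise for duplicates: chi-square divided by its degrees of freedom was 40 to 324.6, so none was merged. Sequencing depth limits counts of low members most, and PCR copies are counted as reads. Of 11849 genes in the reference table of assembly ASM1446616v1, 0 matched the file's identifiers, so no sequence or coordinate from it is given.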

Additional observations from a re-analysis of the deposited data

How the results depend on the processing

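None of the 38 results for named members changed sign under any alternative tried; 30 kept their side of the threshold and 8 lost the call in at least 1 setting. Of the 19 calls in BBP against control, 10 were kept under every setting, as were 4 of 6 in BBP+PB against BBP and 24 of 33 in BBP+PB against control. Leaving out 1 library gave 4 to 7 higher and 6 to 14 lower members in BBP against control, the 6 coming without BBP+PB replicate 3 and without control replicate 2; 2 to 6 higher and 2 to 5 lower in BBP+PB against BBP; and, for BBP against the mean of the other groups, 0 to 5 higher and 0 to 3 lower. Lower members in BBP against control numbered 7 when only those groups were fitted, and higher members 11 with DESeq2. In BBP+PB against BBP 4 were lower under library-size scaling, DESeq2 and limma at either pseudocount. In BBP against the mean of the others, higher and lower members were 3 and 0 with library size, 2 and 0 with limma at a pseudocount of 1, 3 and 0 at 0.1, 3 and 1 with no filter, and DESeq2 gave 4 lower. Members with a matching term alone gave 2 higher in BBP against control, 2 higher and 0 lower in BBP+PB against BBP, and 7 higher in BBP+PB against control, with a median of -0.24 in BBP against control. Member medians with library size were -0.19 in BBP against control, -0.16 in BBP+PB against BBP and -0.41 in BBP+PB against control; for the last, limma gave -0.37 and -0.40, and leaving out 1 library -0.20 to -0.082. The cause of these moves was not tested. Replicate numbers showed no consistent pairing of the libraries. Deviations of same-numbered libraries correlated at -0.152 to 0.206, and those of differently numbered ones at -0.243 to 0.155. The highest 2 values were for same-numbered BBP+PB and control libraries, replicate 3 (0.206) and replicate 1 (0.173). With the replicate block 6 members were lower in BBP against control, and 1 higher and 0 lower in BBP against the mean of the others.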
